A study of Homo sapiens with 6 samples.

Results

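The 7 microRNAs described here are hsa-miR-328-3p, hsa-miR-149-5p, hsa-miR-1180-3p, hsa-miR-345-5p, hsa-miR-940, hsa-miR-4664-3p and hsa-miR-1299, taken by name from the 1596 mature miRNAs of a small RNA sequencing experiment in melanoma cells. They were selected on their measured log2 fold change, higher with IFN-γ, and on being thought of as GC-rich miRNAs from hairpins that stand alone, so their change between the groups, and how many of them pass a threshold, are given below as a description and are no independent evidence of a change. The study compared cells treated for 24 h with RSL3 (RSL3 monotreatment group, 3 libraries) with cells treated for 24 h with RSL3+IFN-gamma (RSL3 combined with IFN-γ treatment group, 3 libraries). Both groups thus carry RSL3, an inhibitor of the lipid peroxide-clearing enzyme GPX4 that drives ferroptosis, and no untreated cells were analysed here. The sample labels name the cells as A2058, a human melanoma line, whereas the methods of the study name A375 for the sequencing, and no dose is given in the labels.

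A miRNA is cut from a hairpin in a longer transcript, first by Drosha in the nucleus and then by Dicer in the cytoplasm, and 1 of the arms is usually retained by an Argonaute protein while the other is degraded. Bases 2 to 8 of the retained arm, the seed, pair with messenger RNAs and lower their output. Many hairpins lie in introns of protein-coding genes and are released as the host transcript is spliced. IFN-γ, a cytokine of activated T cells, signals through its cell-surface receptor and JAK kinases.

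Of the 7 mature sequences, 6 were found in RefSeq (GRCh38.p14) and are printed because GC content and seed are the features by which these miRNAs could be related. Each runs 5′ to 3′, with the seed in capitals.
miR-328-3p: cUGGCCCUcucugcccuuccgu
miR-149-5p: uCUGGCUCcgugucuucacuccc
miR-1180-3p: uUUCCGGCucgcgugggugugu
miR-345-5p: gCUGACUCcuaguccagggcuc
miR-940: aAGGCAGGgcccccgcucccc
miR-1299: uUCUGGAAuucugugugaggga

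The GC content was 81.0% in miR-940, 68.2% in miR-328-3p, 63.6% in both miR-1180-3p and miR-345-5p and 60.9% in miR-149-5p, against a median of 52.0% over the 1425 miRNAs of the table with a RefSeq sequence. MiR-1299 did not carry the label, since its GC content of 45.5% lay below that median. No pair of the 6 shared a seed. The closest seeds were those of miR-149-5p and miR-345-5p, which differed by the single substitution G5A, counted from the 5′ end of the miRNA, while every other pair differed at 4 or more of the bases. The only other RefSeq miRNA with the seed of any of the 6 was miR-6808-5p, which has that of miR-940 and is not among the miRNAs of the table. The longest run of bases that any of the 6 had in common with another mature miRNA of RefSeq was 11. MiRNAs of the table without a RefSeq sequence could not be searched for shared seeds or runs.

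The hairpins lay on 6 chromosomes, and their surroundings in GENCODE 29 (GRCh38) differed. MIR149 (chr2:240456001-240456089, plus strand) lay in an intron of GPC1, on the same strand, which encodes the heparan sulfate proteoglycan glypican-1. MIR1180 (chr17:19344506-19344574, minus strand) lay in an intron of B9D1, on the same strand, which encodes a protein of the base of the primary cilium. MIR4664 (chr8:143733083-143733153, minus strand) lay in an intron of FAM83H, on the same strand, a gene needed for tooth enamel. MIR328 (chr16:67202321-67202395, minus strand) lay opposite an intron of ELMO3, whose family takes part in cell engulfment and migration, and had no host gene on its own strand.

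The other 3 hairpins lay in no protein-coding gene. MIR345 (chr14:100307859-100307956, plus strand) overlapped no annotated gene and lay 1312 bases from SLC25A29, which is on the opposite strand and encodes a mitochondrial carrier of basic amino acids. MIR1299 (chr9:40929010-40929092, minus strand) overlapped no gene, the nearest being a pseudogene at 45247 bases. MIR940 (chr16:2271747-2271840, plus strand) lay in an exon of the long non-coding RNA AC009065.4, on the same strand.

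MIR940 did not stand alone either. MIR3677 was 975 bases away and MIR4717 was 2780 bases away, both on the plus strand, whereas the nearest hairpin to each of the other 6 was between 30442 bases (MIR6764, from MIR345) and 1031031 bases (MIR6773, from MIR328) away. The label of GC-rich single hairpins thus fitted miR-328-3p, miR-149-5p, miR-1180-3p and miR-345-5p in full. By RNAfold the hairpins of the 5 GC-rich miRNAs had folding energies of −0.63 to −0.53 kcal/mol per base, against a median of −0.45 over 1560 hairpins, and that of MIR1299 had −0.41.

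The libraries held 4383940 to 6513382 counts. Raw counts were scaled by TMM, which sets the trimmed mean of log ratios between libraries to 0, and levels are given as counts per 1000000 (CPM) after that scaling. The TMM factors were 0.861 to 0.913 in the RSL3 group and 0.944 to 1.33 in the combined treatment group, so the scaling itself differed between the groups and the change of each miRNA is also given under other scalings below. Of 6 miRNAs of melanocytes and melanoma all were in the table, with a summed level of 577 to 744 CPM in the RSL3 group and 489 to 578 CPM in the combined group, miR-211-5p the highest of them. Of the 3 that were abundant enough to be tested, miR-514a-3p fell (log2 fold change −1.38, adjusted p = 0.0374 from edgeR), while miR-204-5p was at −0.75 and miR-211-5p at 0.23 without passing. Of 5 miRNAs of blood cells, none at 0 in all libraries, the sum was 112 to 177 CPM and 99.3 to 363 CPM. Of 4 miRNAs of liver and muscle, none at 0, it was 251 to 1362 CPM and 283 to 452 CPM, the highest sum being mostly the 1280 CPM of the muscle miRNA miR-1-3p in RSL3 replicate 3. The liver miRNA miR-122-5p moved in the same direction as the 7, at 31.2, 90.3 and 29.05 CPM with RSL3 alone and 79.7, 174 and 68.3 CPM with the combined treatment, which overlapped. The combined group was 2.14-fold higher (adjusted p = 0.180 from edgeR), and it passed with replicate numbers fitted as blocks (log2 fold change 1.17, adjusted p = 0.0197). The muscle miRNAs miR-1-3p, miR-133a-3p and miR-206 went the other way, with log2 fold changes of −1.36, −0.86 and −0.38. None of them passed, with or without the block. The part of such other sources in the levels below was not tested.

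Hsa-miR-345-5p, reported in other work to target the co-chaperone BAG3, was the most abundant of the 7. It was at 704, 917 and 685 CPM with RSL3 alone (replicates 1, 2 and 3) and at 1432, 1793 and 1879 CPM in the combined treatment libraries. The groups did not overlap, and replicate 1 was the lowest of the combined libraries. Its log2 fold change was 1.15 (standard error 0.234).

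Hsa-miR-1180-3p, from the B9D1 intron, was at 515, 668 and 640 CPM with RSL3 alone and at 1217, 1590 and 1084 CPM in the combined treatment libraries. Here replicate 2 was the highest of the combined libraries, and the groups again did not overlap. On the log2 scale the combined group was higher by 1.09 (standard error 0.241).

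Hsa-miR-149-5p, from the GPC1 intron, was at 304, 411 and 340 CPM with RSL3 alone and at 751, 818 and 666 CPM in the combined treatment libraries. It had the narrowest scatter within the combined group, and the lowest combined library was above the highest RSL3 library by 1.62-fold. This gave a log2 fold change of 1.08 (standard error 0.227).

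Hsa-miR-328-3p, reported in other work to target the drug transporter ABCG2, had the largest change of the 7. It was at 40.6, 42.9 and 61.1 CPM with RSL3 alone, from 192 to 349 reads, and at 180, 208 and 154 CPM in the combined treatment libraries, from 747 to 1218 reads. RSL3 replicate 3 was the highest of its group and was still below the lowest combined library, which was 2.52-fold higher. The log2 fold change was 1.91 (standard error 0.257), and 8 other tested miRNAs had a larger increase.

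Hsa-miR-4664-3p, from the FAM83H intron, was at 39.1, 58.1 and 45.7 CPM with RSL3 alone and at 68.4, 139 and 123 CPM in the combined treatment libraries. Its groups came closest to each other, with replicate 1 of the combined treatment, at 283 reads, far below the other combined libraries at 814 and 761 reads. The fitted log2 fold change was 1.21 (standard error 0.304). With 1 library left out it ranged from 1.00 (replicate 2 of the combined group) to 1.46 (replicate 1 of that group).

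Hsa-miR-940, from the long non-coding RNA AC009065.4, was at 12.2, 19.4 and 11.0 CPM with RSL3 alone and at 25.8, 37.4 and 43.4 CPM in the combined treatment libraries. RSL3 replicate 2 stood highest in its group, and the groups did not overlap. Here the log2 fold change was 1.33 (standard error 0.321), and with 1 library left out it ranged from 1.14 (RSL3 replicate 3) to 1.60 (RSL3 replicate 2).

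Hsa-miR-1299 was the rarest of the 7, with 15, 15 and 23 reads with RSL3 alone and 37, 79 and 51 reads in the combined treatment libraries. A count of 15 has an exact Poisson 95% interval of 8.40 to 24.7 reads, which covers counting error only. The levels were 2.96, 3.35 and 4.02 CPM against 8.94, 13.5 and 8.23 CPM, without overlap. The reads gave a log2 fold change of 1.56 (standard error 0.371).

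**Figure D1:**
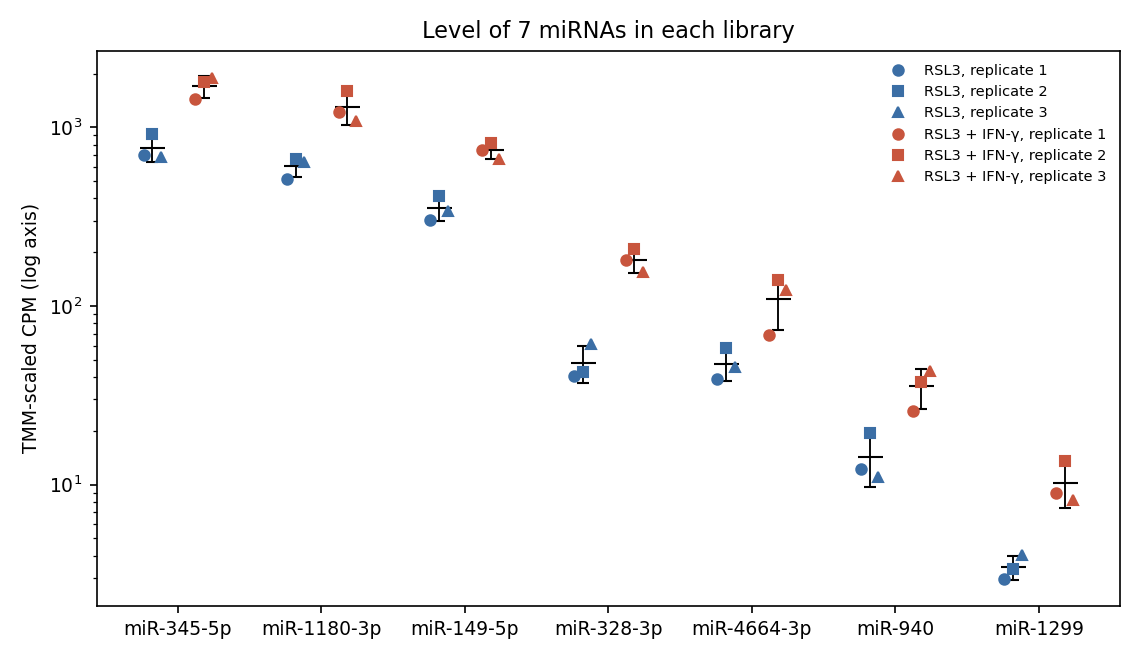
TMM-scaled CPM (log axis) of the 7 miRNAs in each of the 6 libraries, ordered by mean level; points are libraries (marker shapes are replicate numbers), and bars are the mean and SD of 3 libraries. In each miRNA the 3 combined treatment libraries lie above the 3 RSL3 libraries, with the smallest gap in miR-4664-3p (68.4 against 58.1 CPM).

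The order of the mean levels was the same in both groups, from 769 ± 129 CPM for miR-345-5p down to 3.45 ± 0.539 CPM for miR-1299 (SD, n = 3) in the RSL3 group. MiR-328-3p and miR-4664-3p did not differ beyond their spread in the RSL3 group, at 48.2 ± 11.2 and 47.6 ± 9.68 CPM (SD, n = 3 each), whereas in the combined group they stood at 181 ± 27.0 and 110 ± 37.0 CPM (SD, n = 3 each) and did not overlap. All 7 passed edgeR's filter on low counts. The groups were separate, with the combined group higher, in 7 of the 7, as in 15.0% of the 758 tested miRNAs, and 7 of the 7 were past an adjusted p of 0.05 in edgeR's quasi-likelihood test, as 2.51% of the tested miRNAs were (2.24% fell). Both counts, and those under other settings below, follow from how the 7 were chosen and serve only to describe how the calls move with the settings. The pass at 0.05 also hung on single libraries, since without RSL3 replicate 1 none of the 7 was past it (all 7 had an unadjusted p under 0.05; no other tool was run without that library), while 0.00% of tested miRNAs rose. It was 1 of the 7 without RSL3 replicate 3 (0.994% of tested miRNAs rose), and likewise 1 when replicate 2 (0.508%) or replicate 3 (0.512%) was left out of the combined group. It was 6 without RSL3 replicate 2 (3.19%) and 7 when replicate 1 was left out of the combined group (5.52%).

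The rank of a miRNA within its library needs no scaling between libraries. By read count among the 1596 miRNAs, miR-328-3p stood at ranks 254 to 293 with RSL3 alone and at 157 to 174 in the combined treatment libraries. The ranks of miR-345-5p were 81 to 89 and 55 to 66, those of miR-1180-3p were 89 to 101 and 62 to 79, and those of miR-149-5p were 112 to 134 and 91 to 96. For miR-4664-3p the ranks were 254 to 299 and 185 to 227, for miR-940 376 to 454 and 286 to 333, and for miR-1299 597 to 651 and 418 to 493. The ranks of the groups did not overlap for any of the 7. This is a description only, since the 7 were chosen for being higher with IFN-γ. The share of all tested miRNAs with separate ranks was not computed.

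The size of the changes depended on the scaling. Their sign did not, but a scaling moves all miRNAs of a library together and the 7 were chosen for being higher. The constant sign is thus a description only. Library totals alone gave log2 fold changes of 1.46 (miR-149-5p) to 2.29 (miR-328-3p), while the median of all tested miRNAs stood at 0.33. Upper-quartile factors gave 0.97 to 1.81, with that median at −0.13, and median-of-ratios factors gave 1.12 to 1.94, with the median at −0.00. The deposited normalized signal, tested with limma after adding 0.5, gave 1.53 to 2.35, with the median at 0.38. Relative to the median of all tested miRNAs, the median of the 7 was 1.22 to 1.29 under these scalings, including TMM at 1.25. A scaling moves both medians together, so this narrow range is no further evidence of a change. The number of the 7 past the adjusted p of 0.05 was 5 with upper-quartile factors (1.98% of tested miRNAs rose), and 7 with library totals (7.92%), median-of-ratios factors (3.69%) and the deposited signal (7.78%). It was also 7 with replicate numbers fitted as blocks (5.15%), without the filter (3.13%), with DESeq2 (6.58%) and with limma after adding 5 CPM (3.43%), 6 with limma after adding 0.5 CPM (2.11%), and 6 of 6 with a minimum mean of 10 CPM (5.92%), which leaves out miR-1299.

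A further scale was set by 6 miRNAs that are often used as references, namely miR-16-5p, miR-93-5p, miR-103a-3p, miR-191-5p, miR-25-3p and miR-423-3p. Per 1000 reads of their geometric mean, miR-328-3p had 8.91, 11.7 and 12.8 reads with RSL3 alone and 50.9, 67.0 and 44.2 reads in the combined treatment libraries, and miR-345-5p had 154, 251 and 143 against 404, 578 and 540 reads. The log2 fold changes on this scale were 1.41 to 2.28, and all 7 were past the threshold (6.99% of tested miRNAs rose). All 7 also kept separate groups, but the share of tested miRNAs that did so on this scale was not computed. The references themselves had TMM-based log2 fold changes of −0.84 (miR-103a-3p) to 0.02 (miR-423-3p), 5 of the 6 below 0. None passed edgeR's test, and miR-103a-3p fell once replicate numbers were fitted as blocks (adjusted p = 0.0374 from edgeR).

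**Figure D2:**
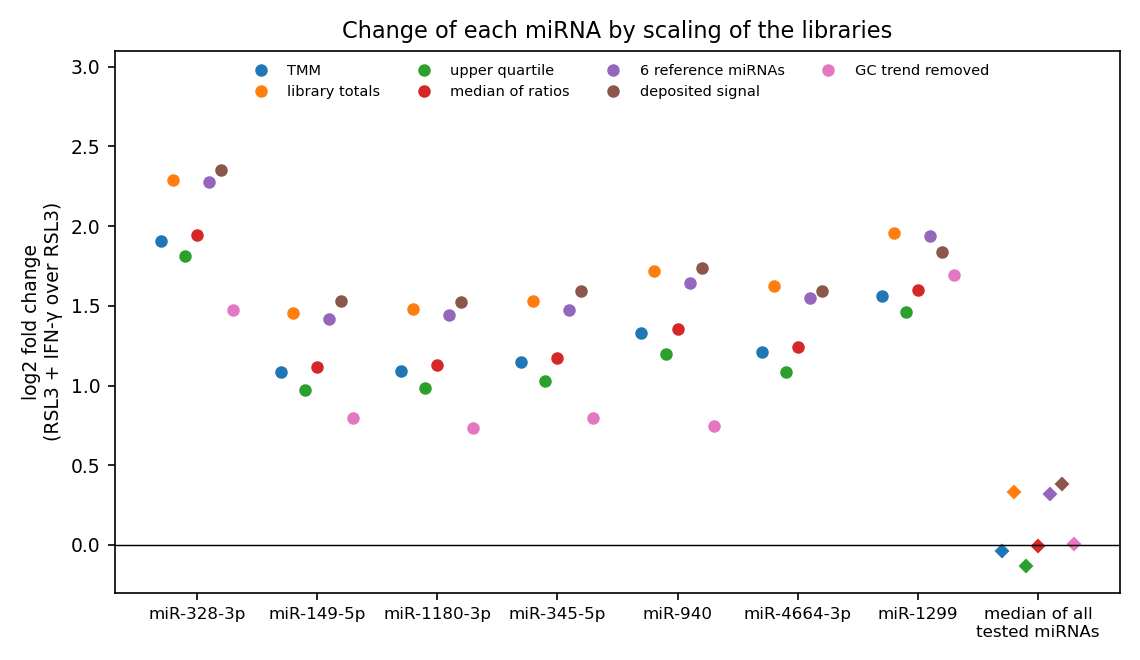
Log2 fold change (RSL3 combined with IFN-γ over RSL3) of each of the 7 miRNAs under 6 scalings and with the GC trend removed (colours), beside the median of all tested miRNAs (diamonds). The 7 were chosen for being higher with IFN-γ, and each of their values lies above 0, between 0.74 and 2.35. The median of all tested miRNAs lies between −0.13 and 0.38. MiR-4664-3p has no value with the GC trend removed.

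The change also moved with GC content across all miRNAs. Over the 679 tested miRNAs with a sequence, log2 fold change and GC content had a Spearman correlation of 0.47, a description across miRNAs that come from the same 6 libraries. Leaving out the 7, the median log2 fold change was −0.65 over 126 miRNAs of under 40% GC, of which 9 fell and none rose, and 0.40 over 133 miRNAs of 60% GC and over, of which 4 rose and none fell.

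The fitted trend stood at 0.43 at the GC content of miR-328-3p, 0.64 at that of miR-940, 0.36 at that of miR-1180-3p and miR-345-5p and 0.30 at that of miR-149-5p. Their log2 fold changes exceeded it by 1.47 for miR-328-3p, 0.68 for miR-940, 0.73 for miR-1180-3p, 0.79 for miR-345-5p and 0.78 for miR-149-5p. MiR-1299 exceeded it by the most, at 1.70, the trend being at −0.14 at its GC content. With the GC trend removed in each library before the test, 2 of the 6 with a sequence, miR-328-3p and miR-1299, were past an adjusted p of 0.05 (1.33% of tested miRNAs rose), and none with the replicate number as a block as well (1.18%; all 6 had an unadjusted p under 0.05, and no other tool was run on these offsets).

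Within the groups, the 7 deviated together in some libraries only. Each of the 7 lay below its RSL3 group mean in RSL3 replicate 1 and above its combined group mean in replicate 2 of the combined treatment. Their median deviation there was −0.20 and 0.21, against −0.02 in both over all tested miRNAs. In RSL3 replicates 2 and 3, 5 and 3 of the 7 lay above the group mean. In replicates 1 and 3 of the combined treatment it was 2 and 3. The share of all tested miRNAs on each side was not computed. Relative to each miRNA's mean over the 6 libraries, the mean of the 7 on the log2 scale was −0.85, −0.47 and −0.63 with RSL3 alone and 0.44, 0.89 and 0.62 in the combined treatment libraries. The median of the other tested miRNAs of 60% GC and over moved in the same order within the RSL3 group, at −0.30, 0.08 and −0.20, and within the combined group, at −0.00, 0.30 and 0.26. Replicate 2 of the combined treatment also had the highest TMM factor, 1.33. The part of GC content or of this library in the changes of the 7 was not tested beyond the values given here.

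**Figure D3:**
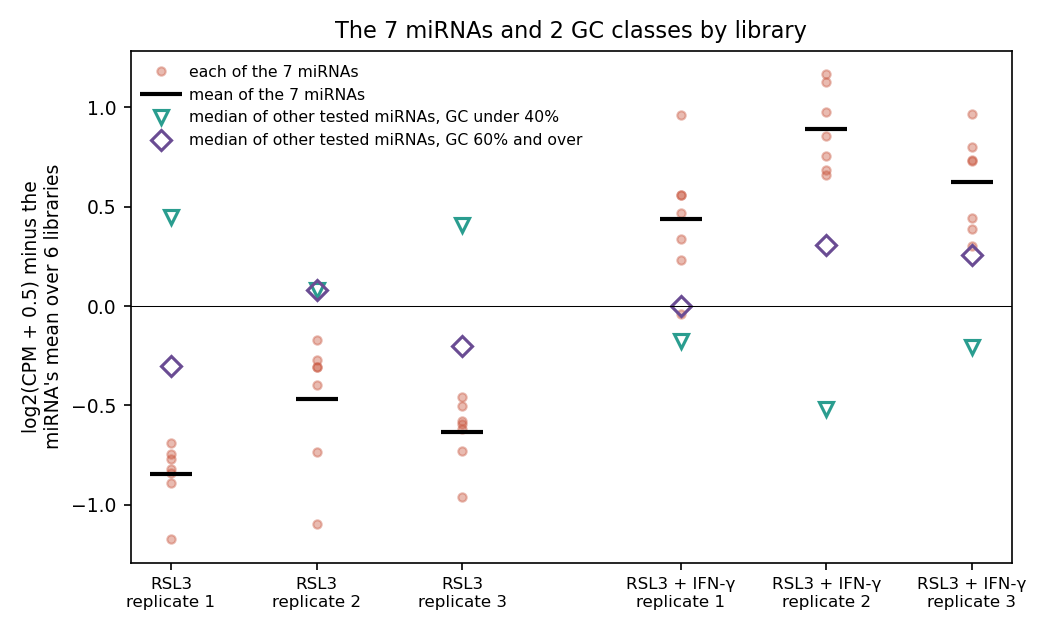
Log2(CPM + 0.5) of the 7 miRNAs minus each one's mean over the 6 libraries (circles, with their mean as a bar), beside the medians of the other tested miRNAs of under 40% GC (triangles) and of 60% GC and over (diamonds). Replicate 1 of the RSL3 group has the lowest mean of the 7, −0.85, and replicate 2 of the combined treatment the highest, 0.89.

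The other arms of the same hairpins were not used in choosing the 7, and none of them passed the test. The table held 5 of them, at 2 to 80 reads summed over the 6 libraries, and only miR-345-3p and miR-4664-5p were abundant enough to be tested. MiR-345-3p had 12, 16 and 10 reads with RSL3 alone and 16, 20 and 6 reads in the combined treatment libraries, which overlapped throughout. By edgeR its log2 fold change was 0.09, with a standard error of 0.593 and an adjusted p of 0.928, so a change of the size of that of miR-345-5p could not be told from none at this depth, and the difference between the arms was not tested.

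MiR-4664-5p had 2, 3 and 13 reads against 4, 29 and 20 reads, which by edgeR was a log2 fold change of 1.42, with a standard error of 0.745 and an adjusted p of 0.258. Neither arm had an unadjusted p under 0.05, and neither was called by DESeq2 or limma. The other 3 arms were left out by the filter. MiR-149-3p, an arm reported to respond to p53 in melanoma cells, had 10, 4 and 7 reads against 13, 6 and 9, miR-1180-5p had 7 reads in all and miR-328-5p had 2.

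The neighbours of MIR940 share its strand and were looked up after the annotation had been seen. MiR-3677-3p was at 7.89, 13.4 and 10.3 CPM with RSL3 alone and at 14.0, 17.9 and 11.5 CPM in the combined treatment libraries, with overlap. Its log2 fold change was 0.46 (standard error 0.324, adjusted p = 0.396 from edgeR), and it was −0.07 with the GC trend removed. MiR-3677-5p had 23 reads and miR-4717-3p 10 reads over all libraries, too few to be tested.

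Outside the 7, 92 tested mature miRNAs had a GC content of at least 60% and came from a single hairpin with no other within 10 kb. Arms are counted one by one, and miR-345-3p, from the hairpin of miR-345-5p, is among them. Of these, 4 rose and none fell by edgeR. Of all tested miRNAs 2.51% rose and 2.24% fell, 4.75% in either direction. When replicate numbers were fitted as blocks 7 rose and 1 fell. Of all tested miRNAs 5.15% then rose and 10.8% were called in either direction. Whether the list differs from all tested miRNAs was not tested. The one that fell there was miR-7111-5p (log2 fold change −2.22, adjusted p = 0.0399 with the block and 0.0557 without it). The median log2 fold change of the 92 was 0.43, and 66 of them were above 0, beside a median of −0.04 over all tested miRNAs, of which 48.4% were above 0. The 4 that rose were miR-6840-3p (log2 fold change 2.02), both arms of the hypoxia-induced miR-210 (1.87 for miR-210-5p and 1.64 for miR-210-3p) and miR-7977 (1.59). MiR-6840-3p was rare, at 1.22 against 5.06 CPM. The more abundant arm of its hairpin, miR-6840-5p, went the other way without passing (26.5 against 14.4 CPM, log2 fold change −0.89). MiR-7977 scattered widely in the combined group, at 117 ± 61.5 CPM (SD, n = 3). The most abundant beside miR-210-3p were miR-1307-3p (0.44), miR-744-5p (0.06) and miR-671-5p (0.77), none of which passed. The count of calls was 0 without RSL3 replicate 1 (10 of 91 at an unadjusted p under 0.05), 2 without RSL3 replicate 2 or 3 or with replicate 2 or 3 dropped from the combined group, and 10 with its replicate 1 dropped.

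The miRNAs whose profile over the 6 libraries came closest to the mean profile of the 7 were sought among 467 others with a mean of at least 10 CPM, by the root mean square distance of centred log2 levels. As the 7 were selected for being higher with IFN-γ, miRNAs near their mean profile are bound to be higher too, and this is a description of likeness only. They were miR-3661 (distance 0.104), miR-22-3p (0.111), miR-320c (0.152), miR-3679-5p (0.166) and miR-193a-3p (0.192), against a median distance of 0.754. Their log2 fold changes were 1.03 to 1.38, and miR-3661 (6.25 against 14.7 CPM) and miR-193a-3p (9.67 against 25.1 CPM) had a mean under 10 CPM with RSL3 alone. Of the 5 only miR-3661 was GC-rich, at 63.6%, and the others had 45.5% to 56.5%. The distances of the 7 from their own mean profile were 0.150 (miR-345-5p) to 0.380 (miR-328-3p).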

How the data were processed

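Small RNA libraries of melanoma cells (3 treated with RSL3, 3 with RSL3+IFN-gamma) were grouped by their labels. Whether the replicates came from different cultures is not stated, and p-values therefore reflect library-to-library spread, possibly technical in origin. The authors deposited raw counts per mature miRNA and a normalized signal, which is the count over a library total smaller than the sum of the counts. Per the submitters' processing notes, GRCh38 was used with Bowtie 1.1.1, bcl2fastq and edgeR. How multiply mapped reads were treated, how many mismatches were allowed and which miRBase release was used is not given in the sources. Fold changes and p-values of the authors' own comparison were deposited too and not used.

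The 7 miRNAs and the lists were chosen with earlier results of these data known. Counts were filtered (filterByExpr, minimum count 10, minimum total 15, leaving 758 of 1596 miRNAs), scaled by TMM and tested by the edgeR 4.0.16 quasi-likelihood test in R 4.3.3, with Benjamini-Hochberg adjustment over all tested miRNAs and a threshold of 0.05. Named were the 7, the other arms of their hairpins, miRNAs of the same seed, of the GC-rich miRNAs from single hairpins up to 4 called as increased, up to 4 called as decreased (none was, without the block) and the 4 most abundant, the 5 nearest profiles and 6 reference miRNAs. The neighbours of MIR940 were added after the annotation was seen. MiR-7111-5p, miR-6840-5p, the liver and muscle miRNAs and the melanocyte miRNAs were named after their values were seen. A search for motifs in gene promoters is not reported here. GC content was known for 89.6% of tested miRNAs, and its trend was fitted by lowess (span 0.5).

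Alternatives were other scalings and filters, DESeq2 1.42.0, limma 3.58.1 on log2(CPM + 0.5) or log2(CPM + 5), the replicate number as a block, removal of the GC trend, and each library left out. The deposited signal was added as an alternative after seeing the data. Libraries with the same replicate number deviated together from their group means (correlations 0.233, 0.221 and 0.211), so the number was also fitted as a block. Libraries of different numbers were not compared in this way, so a true pairing is not established. The main test left the numbers out. On simulated data for the comparison of RSL3+IFN-gamma with RSL3 over 758 miRNAs, the edgeR test recovered 44.5% of changes of 1 and 92.0% of changes of 2 on the log2 scale, with 2.63% false calls. The simulated counts were drawn independently, with changes in random directions, no GC trend and no deviation shared by replicate number. The real libraries had both, so these rates need not hold for them.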

Additional observations from a re-analysis of the deposited data

How the results depend on the processing

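Each of the 7 miRNAs was higher with the combined treatment under every alternative that could be computed for it. The 7 were chosen for being higher in these same libraries, so this only describes the settings. MiR-4664-3p had no value with the GC trend removed, and miR-1299 had none with a minimum mean of 10 CPM. The median log2 fold change of the 7 was 1.21 with TMM, 1.63 with library totals, 1.55 with the reference miRNAs, 1.60 with the deposited signal (added after seeing the data), 0.80 with the GC trend removed and 0.79 with the replicate block as well. Of the 7, the number past the threshold was 2 with the GC trend removed (1.33% of tested miRNAs rose) and 0 with the block as well (1.18%). It was 0 to 7 with 1 library left out (0.00% to 5.52%). The cause of these changes was not tested.

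Over all tested miRNAs, 19 rose and 17 fell in the edgeR test. The counts were 60 and 11 with library totals, 53 and 11 with the reference miRNAs, 59 and 9 with the deposited signal, 50 and 56 without the filter, 48 and 42 with DESeq2, 39 and 43 with the replicate block, 9 and 4 with the GC trend removed, and 8 and 3 with the block as well. With 1 library left out, 0 to 45 rose and 0 to 50 fell. The lowest counts came without RSL3 replicate 1, where 124 miRNAs had an unadjusted p under 0.05 in edgeR, the only tool run without that library, and the highest with replicate 1 dropped from the combined group.

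Of the 92 other GC-rich mature miRNAs from single hairpins, 4 were called in either direction (4.75% of all tested miRNAs were). There were 11 calls with library totals and with the reference miRNAs, 14 with the deposited signal, 9 without the filter and 10 with DESeq2. There were 8 with the replicate block (10.8% of all tested miRNAs), 1 with the GC trend removed with or without the block, and 0 to 10 with 1 library left out. The calls over all tested miRNAs, given above, also moved with these settings, and the number of these miRNAs tested was not the same under each. These counts therefore describe the settings only. With TMM and no GC correction, the block changed the call of none of the 7.

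MiR-345-3p, at 0.09, changed sign with upper-quartile factors (−0.020), limma with 0.5 added (−0.023), the replicate block (−0.0096), the GC trend removed (−0.31) and the block as well (−0.41), and ranged from −0.21 to 0.50 with 1 library left out. MiR-3677-3p, at 0.46, changed sign with the GC trend removed (−0.066) and with the block as well (−0.088). Depth limits the arms with few reads and miR-1299. With 3 libraries against 3, an exact permutation test of 1 value cannot go below 0.1.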
